A study of Rattus norvegicus with 12 samples.

Results

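Insr, Igf1r, Irs1, Irs2, Pik3r1, Pik3ca, Akt1 and Akt2 were the 8 genes examined in INS-1E cells, a rat insulinoma line that makes insulin and is used as a β-cell model. They were taken by gene symbol from the 34034 rows of a table of RNA-seq counts. All 8 were among the 14324 genes with a library-scaled count (CPM) above 1 in at least 2 libraries, and all 8 were therefore tested.

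These genes encode the first steps of insulin and IGF signalling. Insr and Igf1r encode receptor tyrosine kinases that phosphorylate the docking proteins encoded by Irs1 and Irs2. The docked PI3K enzyme, built from a regulatory subunit such as p85α (Pik3r1) and a catalytic subunit such as p110α (Pik3ca), makes the lipid that brings AKT kinases (Akt1, Akt2) to the membrane. In β-cells the branch through IRS2 is known for its role in growth and survival, and AKT holds the forkhead factors FOXO1 and FOXO3 out of the nucleus.

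The cells were studied in 4 groups of 3 libraries, each labelled as a biological replicate of wild-type INS-1E. Untreated cells received no cytokine. IL-1βlow cells were preconditioned with 10 pg/ml IL-1β for 72 h, with fresh cytokine every 24 h. CYT cells were challenged with 100 pg/ml IL-1β and 5 ng/ml IFN-γ for 16 h, and IL-1βlow + CYT cells received the preconditioning, new medium and then the same challenge. The comparisons asked what each treatment did alone and whether preconditioning changed the response to the challenge.

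The libraries held 15812640 to 20246806 counts. Nos2, the inducible nitric oxide synthase, checked the CYT labels, with at most 2 counts in the 6 libraries without CYT, 7590 to 13469 in CYT and 543 to 1120 in IL-1βlow + CYT. All 10 β-cell markers lay above 1 CPM in every group, with a summed level of 43361 to 50282 CPM in untreated, 38877 to 45530 in IL-1βlow, 14788 to 15797 in CYT and 20609 to 26240 in IL-1βlow + CYT libraries. Of 14 markers of other cell types, 2 to 4 lay above 1 CPM in a group, and Ptprc, Prss1 and Cpa1 had no count in any library. Their sum was 188 to 369 CPM in untreated and 158 to 261 in IL-1βlow libraries. It was 28.4 to 69.1 in CYT and 78.7 to 156 in IL-1βlow + CYT libraries. Most of it was glucagon (Gcg), whose part in the results was not tested. The immune marker Adgre1 went the other way, with 0 to 1 counts in the 6 libraries without CYT and 14 to 58 in those with it. Col1a1, a fibroblast marker, had 2 to 3 counts in untreated and 8 to 12 in CYT libraries. The cause of these rises was not tested. In bulk RNA, fewer cells of a type and less RNA per cell cannot be told apart.

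CYT lowered the docking gene Irs2, and the receptor, PI3K and AKT genes did not pass the test in the main fit. That fit had no replicate block. With same-numbered libraries taken as a block, Pik3ca was called lower with CYT (adjusted p = 0.0026, edgeR). Irs2 fell by 69.9% from its untreated level. Its paralog Irs1 fell by 31.9%, a call that was kept in 8 of 20 alternative analyses, with adjusted p up to 0.056 by edgeR. In IL-1βlow + CYT cells Irs2 had still dropped by 66.4%. A gene was called at an adjusted p under 0.01 in the quasi-likelihood test of edgeR, where the Benjamini-Hochberg adjustment ran over all genes tested. In CYT against untreated cells 2 of the 8 genes were called, both lower, whereas 49.7% of all tested genes were called and 24.5% were called lower. The 25% of the 8 genes that were called, both of them lower, was near the 24.5% called lower and under the 49.7% called in either direction. Irs2 was also past a log2 fold change of 1, as were 11.6% of all tested genes in the downward direction. The median log2 fold change was -0.04 over the 8 genes and -0.04 over all tested genes.

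Low-dose IL-1β alone and preconditioning before CYT gave no call among the 8 genes in the fit without a replicate block. With the block, which takes same-numbered libraries as pairs, Akt1 was called in IL-1βlow + CYT against CYT cells (adjusted p = 0.0061, edgeR). In IL-1βlow against untreated cells edgeR called 0 of 8, beside 0.503% of all tested genes. Only Akt2 had an unadjusted p under 0.05 in that comparison, and edgeR's exactTest and DESeq2 also called 0. In IL-1βlow + CYT against CYT cells edgeR called 0 of 8, beside 36.3% of all tested genes. There Akt1 was the 1 gene with an unadjusted p under 0.05, and exactTest and DESeq2 called 0. The interaction, which is the change with CYT in preconditioned cells minus that in cells without preconditioning, was called in 0 of 8 genes by edgeR, beside 22.6% of all tested genes. Irs2 and Akt2 were the 2 genes with an unadjusted p under 0.05 for it, and DESeq2 called 0.

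In the 3 remaining comparisons the calls lay on Irs2 and, in 1 of them, on Irs1. Against untreated cells, IL-1βlow + CYT cells had 1 called gene, Irs2, beside 13.8% of all tested genes, of which 5.53% were lower. Against IL-1βlow cells, IL-1βlow + CYT cells had 1 called gene, again Irs2, beside 8.2% of all tested genes, of which 2.63% were lower. CYT against IL-1βlow cells called Irs1 and Irs2, 2 of 8, beside 45.4% of all tested genes, of which 21.9% were lower. Comparisons that use the same group share its libraries, so these calls on Irs2 are not independent of each other.

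**Figure D1:**
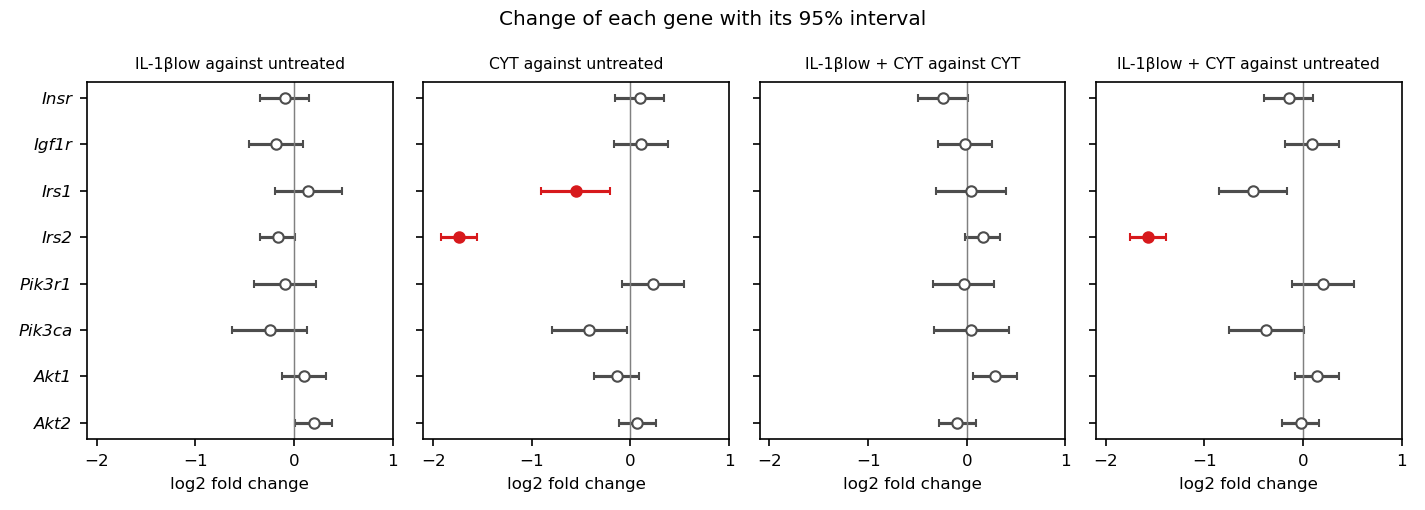
Log2 fold change of each of the 8 genes (points, x axis) with its 95% interval (bars) in 4 comparisons, from edgeR's quasi-likelihood fit of all 12 libraries. Filled red points passed an adjusted p of 0.01: Irs1 (-0.55) and Irs2 (-1.73) in CYT against untreated, and Irs2 (-1.57) in IL-1βlow + CYT against untreated cells. All points of IL-1βlow against untreated and of IL-1βlow + CYT against CYT are open.

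The receptor genes kept close levels in all groups. Insr, the insulin receptor, had 19.6, 21.0 and 16.4 CPM in untreated, 16.9, 18.2 and 18.2 in IL-1βlow, 21.6, 20.7 and 18.6 in CYT, and 16.4, 18.3 and 16.8 in IL-1βlow + CYT libraries. The CYT libraries lay above the 3 IL-1βlow + CYT libraries, and the untreated libraries overlapped every group. Its group means ordered as CYT (20.3 ± 1.57, SD, n = 3), untreated (19.0 ± 2.39), IL-1βlow (17.8 ± 0.744) and IL-1βlow + CYT (17.2 ± 0.964), and no neighbours in that order passed the test. The log2 fold change of Insr was 0.10 in CYT against untreated cells (95% interval -0.15 to 0.34). It was -0.24 in IL-1βlow + CYT against CYT cells (-0.49 to 0.01, adjusted p = 0.10 by edgeR).

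Igf1r, the IGF1 receptor, had 198, 266 and 236 CPM in untreated, 166, 235 and 216 in IL-1βlow, 245, 230 and 278 in CYT, and 232, 260 and 253 in IL-1βlow + CYT libraries. All 4 groups overlapped. Its lowest mean was that of IL-1βlow cells (206 ± 35.3 CPM, SD, n = 3) and its highest that of CYT cells (251 ± 24.6), with IL-1βlow + CYT (248 ± 14.6) and untreated cells (233 ± 33.8) between them. No neighbours in this order passed the test, and the largest difference, 0.29 on the log2 scale between CYT and IL-1βlow cells, had an adjusted p of 0.069 by edgeR. Without the filter on low counts that difference in Igf1r was called (log2 fold change 0.34, adjusted p = 0.0059). Between IL-1βlow + CYT and CYT cells the log2 fold change was -0.02 (95% interval -0.29 to 0.26), and 0.06 with upper quartile factors. In the RefSeq annotation of GRCr8, Insr and Igf1r overlap other genes, and the strand setting of the counting was not given in the sources used here, so their counts may hold reads of those genes.

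Among the genes examined, only the docking genes Irs2 and Irs1 were called in the main fit, and Irs2 had the largest change. The call of Irs1 with CYT was lost in most alternative analyses, and with the replicate block Pik3ca was called with CYT as well. The share of the genes examined that was called with CYT was near the share of all tested genes called lower, so it does not set the docking genes apart. Irs2, which encodes the docking protein most tied to β-cell mass, had 540, 582 and 561 CPM in untreated, 438, 535 and 526 in IL-1βlow, 176, 168 and 162 in CYT, and 189, 190 and 187 in IL-1βlow + CYT libraries. The 6 libraries with CYT all lay below the 6 without it. The 3 IL-1βlow + CYT libraries lay just above the 3 CYT libraries, and the IL-1βlow libraries just below the untreated ones.

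Irs2 fell from 561 ± 20.6 to 169 ± 7.34 CPM (SD, n = 3) with CYT, a log2 fold change of -1.73 with a standard error of 0.085 (adjusted p = 6.4e-10, edgeR). In preconditioned cells the challenge took it from 500 ± 53.5 to 189 ± 2.00 CPM, a log2 fold change of -1.41 with a standard error of 0.085 (adjusted p = 2.4e-08). The difference between both responses, 0.33 with a standard error of 0.12, had an adjusted p of 0.041 and was not called. The gap between IL-1βlow + CYT and CYT cells was 0.16 on the log2 scale (95% interval -0.02 to 0.34, adjusted p = 0.12), although these libraries did not overlap. IL-1βlow alone gave -0.17 (95% interval -0.34 to 0.01, adjusted p = 0.39). In the order untreated, IL-1βlow, IL-1βlow + CYT and CYT, the step from IL-1βlow to IL-1βlow + CYT was therefore the called step between neighbours.

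Irs1, the paralogous docking gene, was read far less deeply, with 85 to 169 counts per library. It had 8.82, 7.69 and 6.20 CPM in untreated, 8.66, 8.10 and 8.33 in IL-1βlow, 5.16, 5.42 and 4.91 in CYT, and 6.20, 4.77 and 5.05 in IL-1βlow + CYT libraries. The CYT libraries lay below all libraries without CYT, and the highest IL-1βlow + CYT library met the lowest untreated one. Irs1 fell from 7.57 ± 1.32 to 5.16 ± 0.257 CPM (SD, n = 3) with CYT, a log2 fold change of -0.55 with a standard error of 0.16 (adjusted p = 0.0086, edgeR).

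That call of Irs1 was narrow. Leaving out 1 library at a time lost it in 8 of 12 cases, most of all without untreated replicate 1, where Irs1 had a log2 fold change of -0.42 and an adjusted p of 0.056 by edgeR. It was also lost with RLE size factors (adjusted p = 0.012), in DESeq2 (0.012), without the filter on low counts (0.042) and with only the 2 groups compared (0.020). Against IL-1βlow cells, whose Irs1 level was 8.36 ± 0.286 CPM (SD, n = 3), the log2 fold change of CYT cells was -0.70 (adjusted p = 0.0020), and without CYT replicate 3 the adjusted p was 0.012.

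The Irs1 level of IL-1βlow + CYT cells lay near that of CYT cells. It was 5.34 ± 0.757 CPM (SD, n = 3), a log2 difference of 0.05 from CYT cells (95% interval -0.31 to 0.40, adjusted p = 0.83 by edgeR). The log2 fold change of Irs1 in IL-1βlow + CYT cells was -0.51 against untreated cells (adjusted p = 0.038) and -0.65 against IL-1βlow cells (adjusted p = 0.014), neither called at 0.01. The second was called by exactTest (adjusted p = 0.0035), by DESeq2 (0.0065) and with the replicate block (0.0057). In the order IL-1βlow, untreated, IL-1βlow + CYT and CYT, no neighbours passed the test. IL-1βlow alone gave 0.14 (95% interval -0.20 to 0.48).

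The 250 bases before the start of a gene are shown for Irs1, the called gene with an entry among the RefSeq promoters of GRCr8, and for Insr, the receptor upstream of it, so that both can be read beside their levels. Capitals mark the letters TGTTTAC, which read GTAAACA on the other strand and are the core letters bound by forkhead factors such as the AKT targets FOXO1 and FOXO3. The Irs1 stretch is chr9:91053960-91054209 and the Insr stretch chr12:6128804-6129053, both on the minus strand and written 5′ to 3′ towards the gene.
Irs1: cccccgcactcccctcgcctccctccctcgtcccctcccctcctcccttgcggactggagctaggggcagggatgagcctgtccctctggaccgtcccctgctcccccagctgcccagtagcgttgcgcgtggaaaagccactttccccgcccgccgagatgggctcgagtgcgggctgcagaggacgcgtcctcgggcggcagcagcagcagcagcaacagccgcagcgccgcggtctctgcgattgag
Insr: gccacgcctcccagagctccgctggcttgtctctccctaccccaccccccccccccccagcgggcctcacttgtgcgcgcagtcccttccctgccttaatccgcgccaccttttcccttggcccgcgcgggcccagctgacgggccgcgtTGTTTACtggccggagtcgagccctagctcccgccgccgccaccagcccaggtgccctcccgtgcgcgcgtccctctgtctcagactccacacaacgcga
The Irs1 stretch holds no capitals, and in Insr the match begins 100 bases before the start.

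Irs2 had no entry, and the other 7 genes had 1 each. GTAAACA on either strand was found in 2 of the 7, Insr and Pik3ca, and in 3.21% of all 33469 promoter windows. Neither gene was called in any of the 7 comparisons of the main fit. With the replicate block Pik3ca was called lower with CYT (adjusted p = 0.0026, edgeR). Without IL-1βlow + CYT replicate 3 it was called lower in IL-1βlow + CYT than in untreated cells (adjusted p = 0.0073, edgeR). The letters TGACGTCA (a cAMP response element) and TTCNNNGAA (a STAT site) were found on either strand in 0 of the 7 genes, and in 1.59% and 7.67% of all windows. A match in a window is a description of its letters and no measure of binding.

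The 2 PI3K subunit genes were not called in any comparison of the main fit. Pik3r1, the p85α regulatory subunit, had 47.0, 38.1 and 43.5 CPM in untreated, 41.2, 34.7 and 44.6 in IL-1βlow, 43.7, 46.1 and 60.7 in CYT, and 48.5, 42.2 and 57.1 in IL-1βlow + CYT libraries. All groups overlapped, and the third library was the highest of each treated group, with or without CYT. Its means ordered as CYT (50.2 ± 9.20 CPM, SD, n = 3), IL-1βlow + CYT (49.2 ± 7.47), untreated (42.9 ± 4.50) and IL-1βlow (40.2 ± 5.06), with no neighbours past the test. The log2 fold change with CYT was 0.23 (95% interval -0.08 to 0.54, adjusted p = 0.19 by edgeR). CYT cells lay above IL-1βlow cells in Pik3r1, uncalled at an adjusted p of 0.072 but called without the filter on low counts (0.0076) and with the replicate block (0.0098). IL-1βlow + CYT differed from CYT cells by -0.03 on the log2 scale (-0.34 to 0.28), and by 0.05 with upper quartile factors.

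Pik3ca, the p110α catalytic subunit, had 62.9, 62.1 and 63.0 CPM in untreated, 51.9, 44.2 and 62.4 in IL-1βlow, 48.8, 36.8 and 54.7 in CYT, and 42.3, 39.7 and 63.5 in IL-1βlow + CYT libraries. The untreated libraries lay close together and above all CYT libraries. Every treated group was wide, up to 13.1 CPM of SD in IL-1βlow + CYT cells. In each treated group replicate 3 was the highest and replicate 2 the lowest, so this width followed the replicate number. With CYT the mean went from 62.7 ± 0.495 to 46.8 ± 9.13 CPM (SD, n = 3), a log2 fold change of -0.42 (95% interval -0.80 to -0.04) that was not called (adjusted p = 0.052, edgeR). With the replicate block it was called, at a log2 fold change of -0.44 and an adjusted p of 0.0026. IL-1βlow + CYT cells were at 48.5 ± 13.1 CPM and IL-1βlow cells at 52.8 ± 9.14, and no neighbours in the order untreated, IL-1βlow, IL-1βlow + CYT and CYT passed the test. Without IL-1βlow + CYT replicate 3, the highest of its group, Pik3ca was called lower in IL-1βlow + CYT than in untreated cells (log2 fold change -0.61, adjusted p = 0.0073), against -0.37 and 0.16 with it.

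The AKT genes differed little between groups. Akt1 had 167, 164 and 173 CPM in untreated, 180, 199 and 161 in IL-1βlow, 159, 166 and 133 in CYT, and 199, 194 and 165 in IL-1βlow + CYT libraries. All groups overlapped. The third library was the lowest of each treated group, and the third CYT library was the lowest of all. Its order was IL-1βlow + CYT (186 ± 18.5 CPM, SD, n = 3), IL-1βlow (180 ± 19.4), untreated (168 ± 4.53) and CYT (153 ± 17.5), with no neighbours past the test. The end groups differed by 0.29 on the log2 scale (95% interval 0.06 to 0.51), with an adjusted p of 0.034 by edgeR that missed the threshold of 0.01. That difference in Akt1 was called with the replicate block (log2 fold change 0.29, adjusted p = 0.0061). It was also called with upper quartile factors (adjusted p = 0.0093) and without IL-1βlow + CYT replicate 3 (adjusted p = 0.0091), at log2 fold changes of 0.36 and 0.37.

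Akt2, the AKT isoform most tied to insulin action on glucose, had 117, 113 and 113 CPM in untreated, 128, 142 and 124 in IL-1βlow, 114, 131 and 115 in CYT, and 119, 118 and 101 in IL-1βlow + CYT libraries. The IL-1βlow libraries lay above the untreated and the IL-1βlow + CYT libraries, and the CYT libraries overlapped all groups. The log2 fold change with IL-1βlow alone was 0.20 (95% interval 0.01 to 0.39, adjusted p = 0.34 by edgeR). With CYT it was 0.07 (-0.12 to 0.26), and -0.02 with upper quartile factors. Its order was IL-1βlow (131 ± 9.26 CPM, SD, n = 3), CYT (120 ± 9.96), untreated (114 ± 2.06) and IL-1βlow + CYT (112 ± 10.0), and no neighbours passed the test. Akt2 overlaps other genes in GRCr8, with the same limit on its counts as for Insr.

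**Figure D2:**
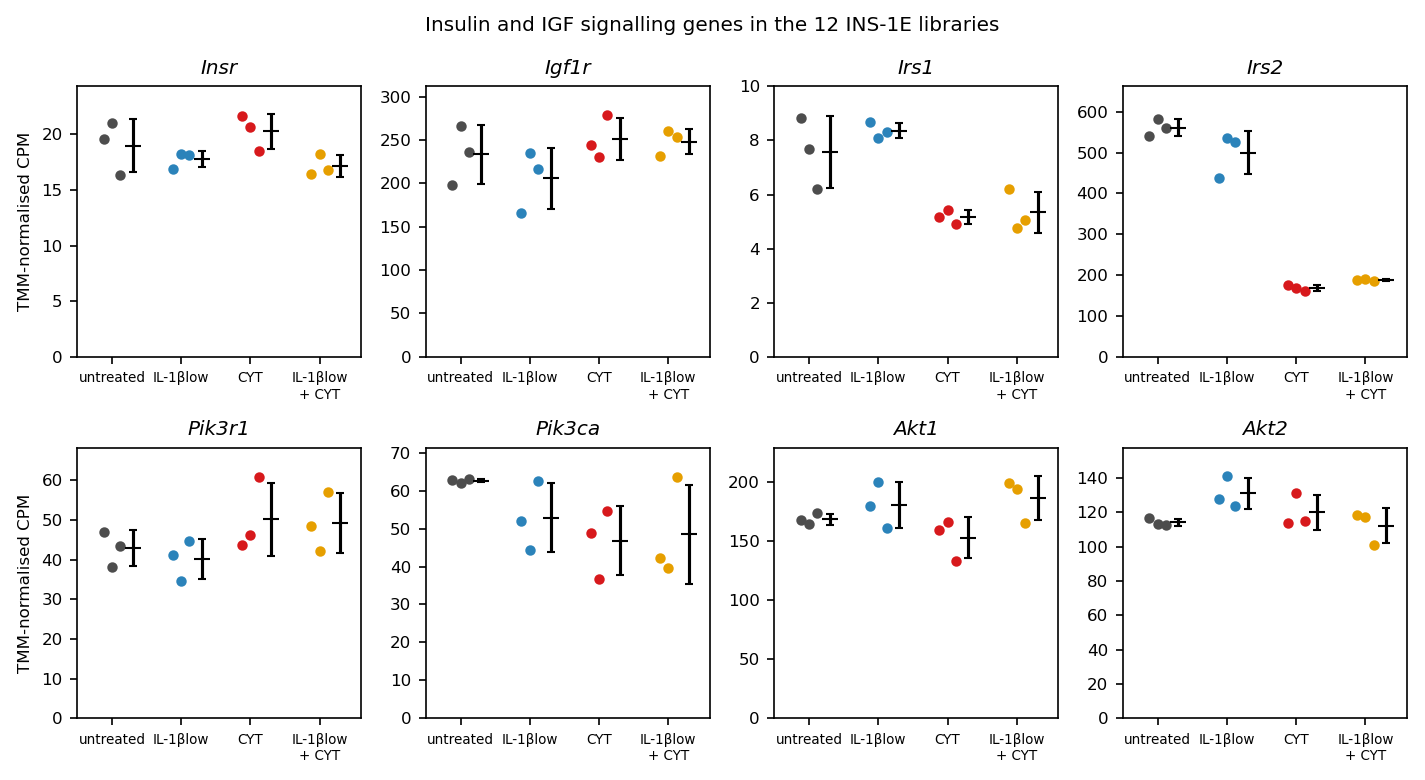
TMM-normalised CPM (y axis, from 0) of the 8 genes in the 12 libraries, with 1 point per library by group (x axis) and the mean ± SD of the 3 libraries as black bars. Irs2 lies at 540 to 582 CPM in untreated and at 162 to 190 CPM in the 6 libraries with CYT, whereas the libraries of Igf1r, Pik3r1 and Akt1 overlap in all 4 groups.

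The share of the spread in log2 CPM that lay between the 4 groups was highest for the docking genes. It comes from the same libraries as their calls and was not computed for other tested genes, so it adds no support to those calls. The share was 99.1% for Irs2 and 83.1% for Irs1, and 37.9% to 51.6% for the other 6 genes. Within groups, the SD of the log2 level was smallest for Irs2 (0.090) and largest for Pik3ca (0.27).

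Ratios of counts within a library do not depend on scaling and were compared between groups for 4 pairs of genes. The ratio of Irs2 to Irs1 was 61.3, 75.6 and 90.4 in untreated, 50.6, 66.1 and 63.2 in IL-1βlow, 34.2, 30.9 and 33.0 in CYT, and 30.5, 39.9 and 36.9 in IL-1βlow + CYT libraries. Irs2 thus lost more of its level than Irs1, and the ratio went from 75.7 ± 14.6 to 32.7 ± 1.65 (SD, n = 3) with CYT with no overlap. The two-sided exact permutation test gave p = 0.1, the smallest that 3 libraries against 3 allow, and 0.24 after adjustment over the 12 ratio comparisons. In IL-1βlow + CYT libraries this ratio was 35.8 ± 4.82, which overlapped that of CYT libraries.

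The ratio of Akt2 to Akt1 was 0.697, 0.690 and 0.651 in untreated, 0.711, 0.709 and 0.770 in IL-1βlow, 0.716, 0.791 and 0.864 in CYT, and 0.596, 0.606 and 0.612 in IL-1βlow + CYT libraries. The IL-1βlow + CYT libraries lay below all others and the untreated ones next above them. Its mean went from 0.680 ± 0.0247 to 0.790 ± 0.0739 (SD, n = 3) between untreated and CYT cells. In IL-1βlow + CYT cells it was 0.605 ± 0.00798. Neither Akt gene was called alone in the main fit. With the replicate block Akt1 was called in IL-1βlow + CYT against CYT cells (adjusted p = 0.0061, edgeR). For this ratio CYT against untreated, IL-1βlow against untreated and IL-1βlow + CYT against CYT each gave the smallest exact p, 0.1 (adjusted 0.24).

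The ratio of Pik3r1 to Pik3ca was 0.747, 0.613 and 0.691 in untreated, 0.794, 0.784 and 0.714 in IL-1βlow, 0.895, 1.25 and 1.11 in CYT, and 1.15, 1.06 and 0.899 in IL-1βlow + CYT libraries. The 6 libraries with CYT lay above the 6 without it. CYT against untreated cells gave the smallest exact p, 0.1 (adjusted 0.24), and IL-1βlow + CYT against CYT gave an exact p of 0.8. The ratio of Insr to Igf1r ranged from 0.0665 to 0.102 over the 12 libraries, and the groups of all 3 comparisons overlapped.

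**Figure D3:**
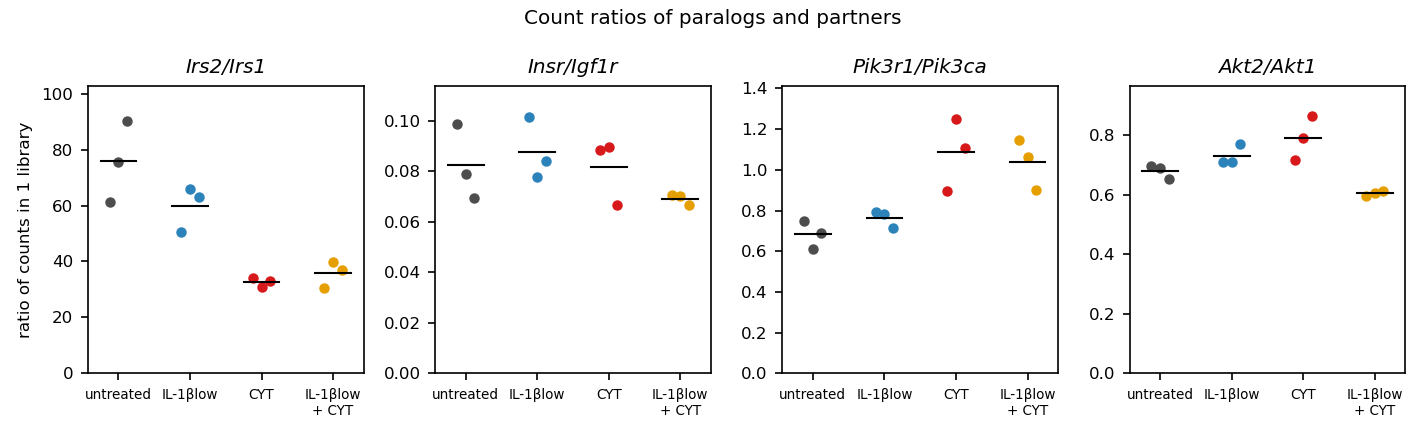
Ratio of the counts of 2 genes in each library (points, y axis from 0) by group (x axis), with the mean of 3 libraries as a line. The ratio of Irs2 to Irs1 is 30.5 to 39.9 in the 6 libraries with CYT and 50.6 to 90.4 in those without, and the ratio of Akt2 to Akt1 is lowest, at 0.596 to 0.612, in IL-1βlow + CYT libraries.

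The genes whose log2 CPM ran most like each of the 8 over the 12 libraries, among 11497 genes, were ranked by Pearson's r as a description, since the points share their groups and, in part, their depth. Irs2 ran most like St3gal1 (r = 0.987) and Fn1 (0.987). Irs1 ran most like Wipi1 (0.927) and Eef1b2 (0.918). For Pik3ca they were Srek1 (0.979) and Itsn2 (0.977), for Pik3r1 Mitf (0.964) and Slc9a7 (0.940), for Akt1 LOC120101052 (0.971) and Nedd8 (0.968), and for Akt2 Cuedc1 (0.931) and Card10 (0.926). The receptors had no close match, with 0.865 (LOC100362820) and 0.845 (Rpl21) for Insr and 0.776 (Isg20) and 0.764 (Mtmr11) for Igf1r.

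Around these 8 genes, 79 other genes of the pathway were followed in lists by role, of which 71 passed the filter. With CYT 19 of the 71 rose and 18 fell, 52.1% against 49.7% of all tested genes, and their median log2 fold change was -0.06 beside -0.04. In IL-1βlow + CYT against CYT cells 11 were higher and 17 lower, 39.4% against 36.3%. IL-1βlow alone lowered only Ins2 among the 71. In IL-1βlow + CYT cells 7 were higher and 7 lower than in untreated cells, 19.7% against 13.8%, and 5 were higher and 4 lower than in IL-1βlow cells, 12.7% against 8.2%. In CYT against IL-1βlow cells 18 were higher and 16 lower, 47.9% against 45.4%.

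The ligands of the receptors fell with CYT. Of 6 ligand and related receptor genes, 5 were lower and 1, Igf2r, was higher. That was 100%, beside 49.7% of all tested genes called in either direction. Ins2, an insulin gene, went from 8097 ± 870 to 1295 ± 23.6 CPM (SD, n = 3), a log2 fold change of -2.64 (adjusted p = 2.2e-10, edgeR), and was at 1765 ± 259 CPM in IL-1βlow + CYT cells, 0.45 above CYT (adjusted p = 0.0037). The latter call was kept in 15 of 20 alternatives and lost with only the 2 groups compared and without each of the 3 CYT libraries or IL-1βlow + CYT replicate 1, where Ins2 had a log2 fold change of 0.29 and an adjusted p of 0.039 by edgeR. Igf1, which encodes a ligand of IGF1R, went from 3.81 ± 1.21 to 1.02 ± 0.388 CPM (SD, n = 3) with CYT, a log2 fold change of -1.88 (adjusted p = 0.0050, edgeR). That call of Igf1 was lost without untreated replicate 1 or 3 or CYT replicate 1 or 2, with adjusted p up to 0.025. Ins1, the other rat insulin gene, was 0.72 higher on the log2 scale in IL-1βlow + CYT than in CYT cells (adjusted p = 0.00062), and reads of sequence that both insulin genes share could have gone to either. With IL-1βlow alone the log2 fold change of Ins2 was -0.73 (adjusted p = 0.0043, edgeR), a call that was lost on leaving out any of 5 libraries (untreated replicates 2 and 3 and each IL-1βlow library), with adjusted p up to 0.029. Insrr, the orphan insulin receptor-related receptor, had 92, 28 and 95 counts in untreated, 44, 20 and 33 in IL-1βlow, 4, 1 and 1 in CYT, and 3, 8 and 9 in IL-1βlow + CYT libraries. Its log2 fold change with CYT was -5.19 (adjusted p = 6.3e-06, edgeR), at these low counts.

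Of 12 tested adaptors beside IRS1 and IRS2, 5 rose and 2 fell with CYT, 58.3% beside 49.7% of all tested genes. Gab2, a docking adaptor that binds p85, rose by 1.69 on the log2 scale (adjusted p = 8.3e-09, edgeR), from 46.8 ± 1.57 to 151 ± 25.4 CPM (SD, n = 3), and was at 55.1 ± 1.83 in IL-1βlow + CYT cells. Grb14, an adaptor that inhibits the insulin receptor, rose by 1.63 (adjusted p = 3.7e-07), and Sh2b2, an adaptor of receptor kinases, by 0.98 (adjusted p = 6.3e-05). Irs4 had a log2 fold change of -1.10 in IL-1βlow + CYT against CYT cells (adjusted p = 0.0057), at 18 to 64 counts per library in all groups, and this call was lost without each CYT library or IL-1βlow + CYT replicate 1 or 2 (adjusted p up to 0.024). Grb10, another inhibitory adaptor, was highest in IL-1βlow + CYT cells, at 11.4 ± 2.02 CPM beside 5.93 ± 1.24 in CYT cells (adjusted p = 0.0025, and up to 0.017 without CYT replicate 1 or 3 or IL-1βlow + CYT replicate 1).

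Among 6 tested PI3K subunit genes other than Pik3r1 and Pik3ca, 2 rose and 2 fell with CYT, 66.7% beside 49.7% of all tested genes. Pik3r5, a regulatory subunit of the γ class, went from 14 to 20 counts in untreated to 451 to 774 in CYT and 178 to 248 in IL-1βlow + CYT libraries, while the γ catalytic gene Pik3cg had 0 to 5 counts in every library. Pik3r3, the p55γ regulatory subunit, had 36.0, 41.1 and 39.6 CPM in untreated, 34.9, 31.1 and 36.2 in IL-1βlow, 8.31, 6.47 and 6.24 in CYT, and 31.8, 31.1 and 41.7 in IL-1βlow + CYT libraries. The CYT libraries stood alone at the bottom, and the other 3 groups overlapped. The log2 fold change of Pik3r3 was -2.47 with CYT (adjusted p = 4.3e-09, edgeR) and 2.31 in IL-1βlow + CYT against CYT cells (adjusted p = 4.6e-08), whereas IL-1βlow + CYT and untreated cells differed by -0.16 (adjusted p = 0.43). Pik3c2b, a class II PI3K, was 1.00 higher on the log2 scale with CYT (adjusted p = 3.1e-06) and differed by 0.17 between IL-1βlow + CYT and CYT cells (adjusted p = 0.20).

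Of 8 genes for a further AKT kinase, kinases related to it and AKT activators, 2 rose and 1 fell with CYT. That was 37.5%, beside 49.7% of all tested genes. Sgk1, a kinase that shares activators with AKT, went from 21.8 ± 1.88 to 214 ± 35.7 CPM (SD, n = 3) with CYT, a log2 fold change of 3.29 (adjusted p = 5.1e-11, edgeR), and was at 52.8 ± 3.88 CPM in IL-1βlow + CYT cells. Its relative Sgk3 fell by 1.08 with CYT (adjusted p = 8.8e-05) and was 0.66 higher in IL-1βlow + CYT than in CYT cells (adjusted p = 0.0061). The latter call was kept in 11 of 20 alternatives, with adjusted p up to 0.028, and was lost with only the 2 groups compared and on leaving out untreated replicate 1 or 2, IL-1βlow replicate 1, any CYT library, or IL-1βlow + CYT replicate 1 or 3. Mapkap1, a subunit of the mTORC2 complex that phosphorylates AKT, rose by 0.60 (adjusted p = 6.2e-05).

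Of 15 tested brakes on the pathway, 4 rose and 4 fell with CYT, 53.3% beside 49.7% of all tested genes. Trib3, a pseudokinase that binds AKT, had 37 to 66 counts in untreated, 3467 to 4409 in CYT and 84 to 336 in IL-1βlow + CYT libraries, and its log2 fold change was 6.08 with CYT (adjusted p = 3.0e-09, edgeR). Inpp4b, a lipid phosphatase of the pathway, fell by 2.96 (adjusted p = 0.00017), at 3 to 8 counts per CYT library. Socs2, a suppressor of cytokine signalling, fell by 1.34 (adjusted p = 2.3e-08). Phlpp1, a phosphatase of AKT, rose from 36.0 ± 1.84 to 67.4 ± 5.22 CPM (SD, n = 3) and was at 36.1 ± 1.40 in IL-1βlow + CYT cells. Socs3, which restrains receptor signalling, had a log2 fold change of -0.76 in IL-1βlow + CYT against CYT cells (adjusted p = 0.00015).

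Of 19 tested AKT targets and mTORC1 genes, 4 rose and 4 fell with CYT by edgeR, 42.1% beside 49.7% of all tested genes. Foxo3 had 60.2, 55.8 and 63.0 CPM in untreated, 65.8, 60.5 and 62.6 in IL-1βlow, 104, 109 and 125 in CYT, and 58.7, 60.4 and 61.6 in IL-1βlow + CYT libraries. The CYT libraries alone stood apart from the rest. Its log2 fold change was 0.91 with CYT (adjusted p = 4.8e-07, edgeR) and -0.90 in IL-1βlow + CYT against CYT cells (adjusted p = 1.4e-06). Akt1s1, an mTORC1 inhibitor that AKT phosphorylates, rose by 1.02 with CYT (adjusted p = 4.8e-07), and its log2 fold change was -0.84 in IL-1βlow + CYT against CYT cells (adjusted p = 6.8e-06). Tsc1, which restrains mTORC1, rose by 0.86 (adjusted p = 4.5e-07).

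Of 5 tested IGF-binding proteins, 1 was called with CYT, 20% beside 49.7% of all tested genes. Igfbp7 rose from 22.2 ± 3.37 to 39.9 ± 5.38 CPM (SD, n = 3), a log2 fold change of 0.85 (adjusted p = 0.00028, edgeR), and was at 22.7 ± 4.28 CPM in IL-1βlow + CYT cells. Igfbp2, at 0.297 to 2.45 CPM, was lower in IL-1βlow + CYT than in CYT cells, at -1.71 on the log2 scale (adjusted p = 0.0032, and up to 0.017 without CYT replicate 2 or IL-1βlow + CYT replicate 1 or 3). In GRCr8 Ins2, Grb14, Sh2b2, Pik3r5, Pik3r3, Pik3c2b, Sgk3, Mapkap1, Inpp4b, Socs2 and Igfbp7 overlap other genes, so their counts carry the same uncertainty as those of Insr.

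**Figure D4:**
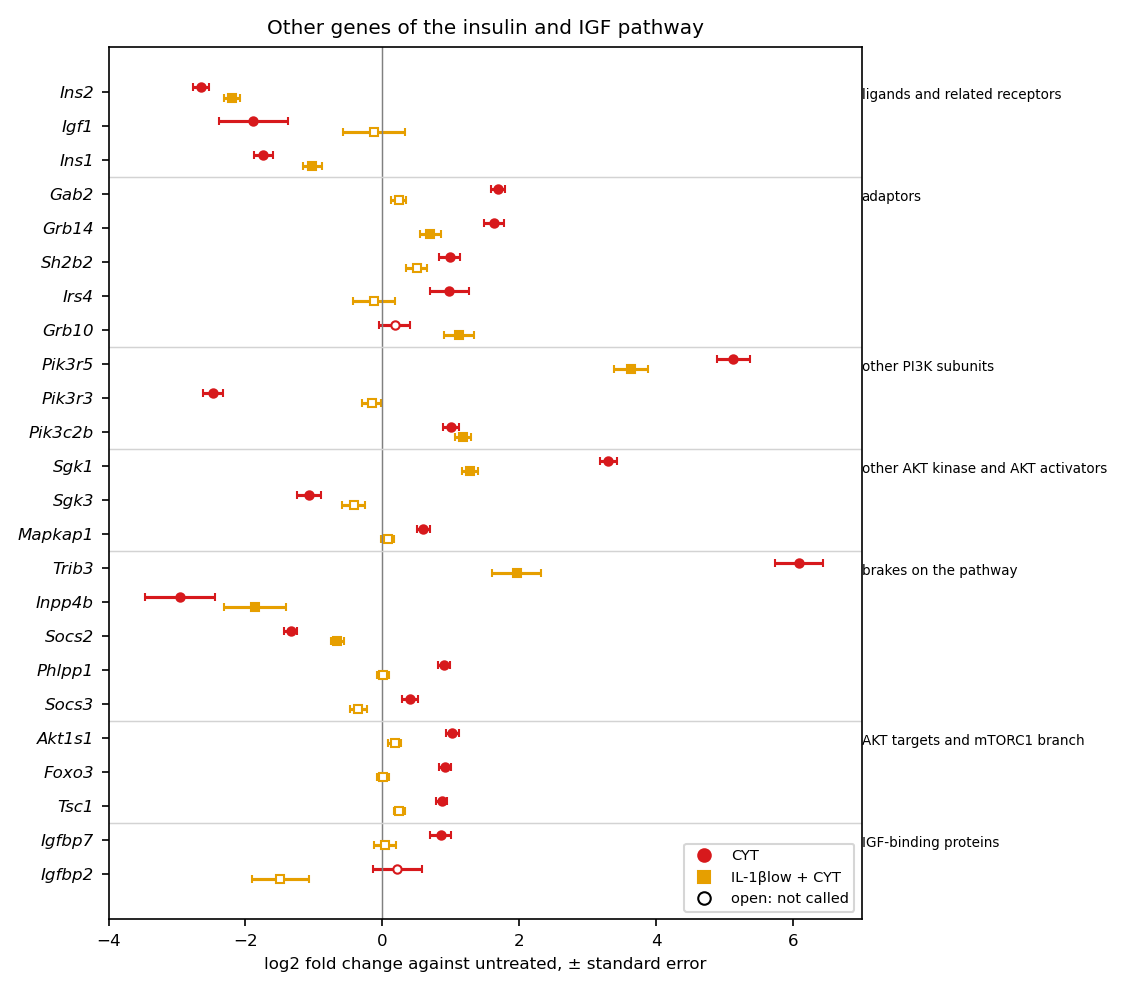
Log2 fold change against untreated cells ± standard error (x axis) of 24 other pathway genes, grouped by role, in CYT (red circles) and IL-1βlow + CYT (orange squares), with open symbols where an adjusted p of 0.01 was not passed. Insrr, named by the same rule, is not drawn (-5.19 in CYT). Pik3r3 lies at -2.47 in CYT and at -0.16 in IL-1βlow + CYT cells, and Foxo3 at 0.91 and 0.01, whereas Ins2 stays low in both groups, at -2.64 and -2.20.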

How the data were processed

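RNA-seq of 12 INS-1E libraries, 3 for each of 4 groups, was used, and groups and replicate numbers were taken from the sample titles. The authors prepared TruSeq libraries from RNA, checked and trimmed the reads (FastQC, rfastp), used Rsubread for alignment to mRatBN7.2 and featureCounts for counting, and deposited raw counts per gene symbol. The strand setting was not given in the sources used here, and no gene lengths were used, so levels were not compared between genes.

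The filter of the study, above 1 CPM in 2 or more libraries, was applied before TMM scaling. All 12 libraries entered 1 fit of edgeR 4.0.16 (R 4.3.3), whose quasi-likelihood test replaced the exactTest of the study, and p-values were adjusted over 14324 genes by Benjamini-Hochberg. Standard errors are the log2 fold change over the root of F, and intervals are 95%. The common biological coefficient of variation was 0.123. Within groups, the chi-square of the counts was 7.11 to 27.5 per degree of freedom, above sampling noise, so each library counted as 1 replicate. Log2 CPM for likeness used a prior count of 2, among genes with a mean log2 CPM above 2. Ratios were tested by two-sided exact permutation. DESeq2 1.42.0, exactTest, other factors and filters, the replicate number as a block and leaving out each library were alternatives. Scripts were tested on simulated counts with 200 changed genes in CYT against untreated libraries. The test recovered 8% of them at a log2 fold change of 0.5, 82.5% at 1 and 96% at 1.5. In the data 7116 genes were called in that comparison, so the adjustment was stricter in the simulation. These shares therefore do not give the recovery in the data, which was not measured. A small change that was not called is not shown to be absent.

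Members and gene lists were chosen with earlier results of these data known. The genes named were the 8 members, up to 3 called genes with the largest change per list in CYT against untreated and in IL-1βlow + CYT against CYT cells, pathway genes called in IL-1βlow against untreated cells, and the 2 most alike per member. Igf2, Igf2r, Foxo1 and Pik3cg were named after their values were seen. Motifs were chosen after the files were read. Without molecular identifiers, reads are no independent molecules, and depth bounds counting error only.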

Additional observations from a re-analysis of the deposited data

Results flagged for a closer look

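Of the 25 other pathway genes named by rule, 16 had a called interaction by edgeR, which means that their change with CYT differed between preconditioned cells and cells without preconditioning. The 25 were chosen for large called changes in comparisons that enter the interaction, so this count is no result about the pathway. Of all 71 tested pathway genes 19 had a called interaction (7 higher and 12 lower), 26.8% beside 22.6% of all tested genes.

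In 11 genes the log2 change with CYT was lower after preconditioning. The difference was -4.25 (adjusted p = 3.0e-05) for the AKT-binding pseudokinase Trib3, -2.42 for Pik3r5 and -2.32 (adjusted p = 6.9e-07) for Sgk1. Among adaptors it was -1.65 for Gab2, -1.19 for Sh2b2 and -0.96 for Grb14. Sh2b2 was already higher, though not called, in IL-1βlow (18.3 to 21.5 CPM) than in untreated libraries (10.1 to 13.9). In IL-1βlow + CYT libraries Sh2b2 lay at 14.5 to 19.5 CPM, still above untreated. For AKT targets and the mTORC1 branch the difference was -0.98 for Foxo3, -0.90 for Akt1s1 and -0.71 for Tsc1. The remaining pair were Phlpp1 (-0.84) and Mapkap1 (-0.63).

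In 5 genes the log2 change with CYT was higher after preconditioning. The difference was 2.50 for Pik3r3 (adjusted p = 1.4e-06), 1.17 for Ins2, 1.10 for Sgk3, 1.07 for Socs2 and 0.83 for Ins1 (adjusted p = 0.0043, the largest of the 16). IL-1βlow alone had lowered Ins2 already, by a log2 fold change of -0.73.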

How the results depend on the processing

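Irs2 kept its direction and its call, or its lack of a call, at an adjusted p of 0.01 in all 7 comparisons, under each of the other tools, factors, filters, designs and left-out libraries that were run. With CYT its log2 fold change ran from -1.83 to -1.66. Of the 8 genes, 2 were called in CYT against untreated cells, but 1 with RLE size factors, DESeq2, no filter on low counts, only the 2 groups compared, or the fold minimum of the study, and 1 to 2 on leaving out each library. In IL-1βlow + CYT against CYT cells the count of 0 became 1 with upper quartile factors, the replicate block or an adjusted p under 0.05, and 0 to 1 on leaving out libraries. Against untreated cells IL-1βlow + CYT cells had 2 instead of 1 at 0.05, and 1 to 2 on leaving out libraries (2 without IL-1βlow + CYT replicate 3). Against IL-1βlow cells they had 2 with exactTest, DESeq2, the replicate block and at 0.05. CYT against IL-1βlow cells gave 4 without the filter, 1 with the fold minimum and 1 to 2 on leaving out libraries (1 without CYT replicate 3). The interaction gave 1 at 0.05.

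Of the other pathway genes, the 1 called in IL-1βlow against untreated cells became 3 with exactTest, DESeq2 or no filter, 2 with the replicate block or at 0.05, and 0 to 1 on leaving out libraries. The fold minimum left 15 in CYT against untreated, 7 in IL-1βlow + CYT against CYT, 9 against untreated, 4 against IL-1βlow, 11 in CYT against IL-1βlow cells and 9 for the interaction. At 0.05 there were 24 in IL-1βlow + CYT against untreated cells and 29 for the interaction. Leaving out libraries gave 10 to 22 in IL-1βlow + CYT against untreated cells, the most without IL-1βlow + CYT replicate 3.

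Small uncalled changes turned sign. With upper quartile factors Akt2 was at -0.024 in CYT against untreated, and Igf1r at 0.058 and Pik3r1 at 0.045 in IL-1βlow + CYT against CYT cells. Without the filter Akt2 was at 0.017 in IL-1βlow + CYT against untreated cells. On leaving out libraries, the CYT against untreated value of Insr ran from -0.0018 to 0.19. The IL-1βlow + CYT against CYT values ran from -0.075 to 0.035 for Igf1r, -0.10 to 0.12 for Irs1, -0.16 to 0.10 for Pik3r1 and -0.19 to 0.17 for Pik3ca. Those against untreated cells ran from -0.039 to 0.18 for Igf1r and -0.078 to 0.048 for Akt2. Those against IL-1βlow cells ran from -0.37 to 0.0095 for Pik3ca and -0.028 to 0.13 for Akt1. The interaction ran from -0.25 to 0.029 for Irs1 and -0.062 to 0.20 for Pik3r1. The cause of these changes was not tested.

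Over all genes, IL-1βlow against untreated cells had 72 calls, and 221 by exactTest, 219 by DESeq2, 406 without the filter, 258 with the replicate block, 193 at 0.05 and 16 to 113 on leaving out libraries. The fold minimum left 3096, 1785, 858, 556, 2731 and 1530 in CYT against untreated, IL-1βlow + CYT against CYT, against untreated and against IL-1βlow, CYT against IL-1βlow and the interaction, from 7116, 5199, 1972, 1175, 6497 and 3236. At 0.05 there were 3124 in IL-1βlow + CYT against untreated, 1855 against IL-1βlow cells and 5337 for the interaction.

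No label states that same-numbered libraries were grown together. Deviations from the group means correlated by 0.191 on average between same-numbered libraries (-0.188 to 0.520 over 18 pairs), and 9 of 12 libraries correlated best with their own number. The 9 pairs among the 3 treated groups ran from 0.116 to 0.520, and the pairs with untreated libraries from -0.188 to 0.181. With the replicate block 3 of the 8 genes were called in CYT against untreated cells, as Pik3ca had an adjusted p of 0.0026. The block also called Akt1 in IL-1βlow + CYT against CYT (adjusted p = 0.0061), Irs1 in IL-1βlow + CYT against IL-1βlow (0.0057) and Pik3r1 in CYT against IL-1βlow cells (0.0098), all by edgeR.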

Other observations

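Of the 79 other pathway genes, 8 did not pass the filter in these cells. Irs3 had 0 to 13 counts per library, Pik3cd 0 to 2, Pik3cg 0 to 5, Pik3c2g 0 to 8, Inpp5d 0 to 14, Igfbp1 0 to 4 and Igfbp6 0 to 11, and Eif4ebp1 had 0 in all 12. The catalytic PI3K genes of the δ and γ classes, known from immune cells, were thus at the limit of this depth. Pik3c2g had 6 to 8 counts in CYT and 0 to 1 in untreated libraries.

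Foxo1, chosen after its values were seen, fell with CYT from 74.4 ± 4.24 to 51.2 ± 2.05 CPM (SD, n = 3), a log2 fold change of -0.54 (adjusted p = 7.1e-05, edgeR), while Foxo3 rose. It was at 77.2 ± 4.89 CPM in IL-1βlow + CYT cells, 0.59 above CYT cells on the log2 scale (adjusted p = 5.2e-05). Igf2, whose protein binds IGF1R and INSR, fell with CYT from 704 ± 17.8 CPM to 462 ± 23.3, and its level of 486 ± 31.3 in IL-1βlow + CYT cells lay 0.07 above CYT cells on the log2 scale (adjusted p = 0.45).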
